A study of Homo sapiens with 6 samples.

Results

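Transcripts of 57 genes for non-collagenous extracellular matrix proteins were examined in undifferentiated H7 cells, an established human embryonic stem cell (hESC) line. The genes encode laminin chains, basement membrane linkers, elastic fibre proteins and latent TGFβ binding proteins, adhesive and matricellular glycoproteins, and secreted and cell surface proteoglycans. They were picked by symbol, and all 57 were found among the 61155 gene symbols of the count table. Bulk RNA sequencing compared 3 libraries of wild-type (WT) cells with 3 libraries of S6K1-/- cells, in which a stretch of RPS6KB1 had been removed by CRISPR/Cas9 with guides against exons 9 and 11. RPS6KB1 encodes the kinase S6K1. Both groups were grown without feeder cells on Matrigel in TeSR-E8 medium, with no further treatment. The sample labels speak of a knockdown and of week 5, while the study's methods describe a knockout in undifferentiated cells, and the names of the methods are kept here. The S6K1-/- cells are 1 clone, so that genotype and clone cannot be told apart. Nothing states whether the libraries of a group came from separate cultures, so p-values measure the spread between these libraries, which may be technical.

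Basement membranes are thin sheets in which laminins, each a trimer of an alpha, a beta and a gamma chain, form 1 network and type IV collagen another, linked by nidogens and perlecan. Elastic fibres are built from elastin on a scaffold of fibrillin microfibrils, which also hold latent TGFβ through latent TGFβ binding proteins. Matricellular proteins such as SPARC, thrombospondins and tenascin C sit in the matrix and alter how cells attach to it, and the heparan sulfate chains of syndecans and glypicans bind growth factors at the cell surface. Human pluripotent cells attach to laminin through integrins and are routinely maintained on Matrigel, a basement membrane extract rich in laminin, so that they meet matrix protein from outside as well as their own.

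Library totals ranged from 21896698 to 24473013 counts, and counts are given below in the order of replicates 1, 2 and 3. Levels are given as CPM, counts relative to the library size after TMM scaling. Differences are log2 fold changes of S6K1-/- over WT cells with their standard errors (SE), from a quasi-likelihood fit in edgeR. All 19521 genes tested entered the Benjamini-Hochberg adjustment, and a gene was called lower or higher at an adjusted p under 0.001. RPS6KB1 had 831, 791 and 777 counts in WT and 464, 464 and 438 in S6K1-/- cells, so that the transcript was lower in every S6K1-/- library but was not lost (33.3 ± 0.994 against 19.8 ± 0.371 CPM, SD, n = 3 each). The defining genes of hESCs were abundant in both groups, with a summed level of 12 such genes from 7749 to 7911 CPM in WT and from 7289 to 7379 CPM in S6K1-/- libraries. Of the 12, 1 was lower (8.33%, beside 2.54% of all genes), namely DNMT3B, a DNA methyltransferase gene, at a log2 fold change of -0.35 (SE 0.0438, adjusted p = 4.88e-05). None was higher past the threshold by edgeR. At an unadjusted p under 0.05, 4 of the 12 had values below 0 and 2 above 0, beside 14.5% and 11.8% of all genes. Those below 0 were DNMT3B, SALL4 (-0.17, adjusted p = 0.00566), TDGF1 (-0.15, adjusted p = 0.0308) and PODXL (-0.11, adjusted p = 0.107), and those above 0 were UTF1 (0.41, adjusted p = 0.00170) and ZFP42 (0.17, adjusted p = 0.00874).

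Together, the 57 genes made up between 0.438% and 0.478% of a library. To set different genes side by side, levels were divided by the length of all annotated exons of a gene merged. This is not the length of the transcripts expressed, so the order depends on the annotation as well. Compared per kilobase of exonic sequence in this way, GPC4 stood first in WT cells with 147 ± 1.34 CPM per kilobase (SD, n = 3). GPC4 encodes a glypican, a heparan sulfate proteoglycan anchored to the membrane by a lipid. It was followed by SPARC with 54.0 ± 2.07, by VCAN, which encodes the large chondroitin sulfate proteoglycan versican, with 47.7 ± 4.79, and by LAMC1 with 33.5 ± 2.83 CPM per kilobase. SDC4 (29.9 ± 1.13), FBLN1 (23.1 ± 0.755) and MFAP2 (22.4 ± 1.89) came next. In this order SPARC and VCAN, LAMC1 and SDC4, and FBLN1 and MFAP2 lay closer to each other than the sum of their SDs, while GPC4 stood far from the rest. At the low end, DCN had no count in any library, and LUM and ASPN had at most 2 and 1. These 3 genes encode small leucine-rich proteoglycans typical of connective tissue, and a count of 3 was taken as the limit below which a transcript is not told from 0. VTN, which encodes vitronectin, and ECM2 had at most 5 and 4 counts. With LAMB3 and FMOD, 7 of the 57 genes did not pass edgeR's filter on low counts and 50 were tested.

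**Figure D1:**
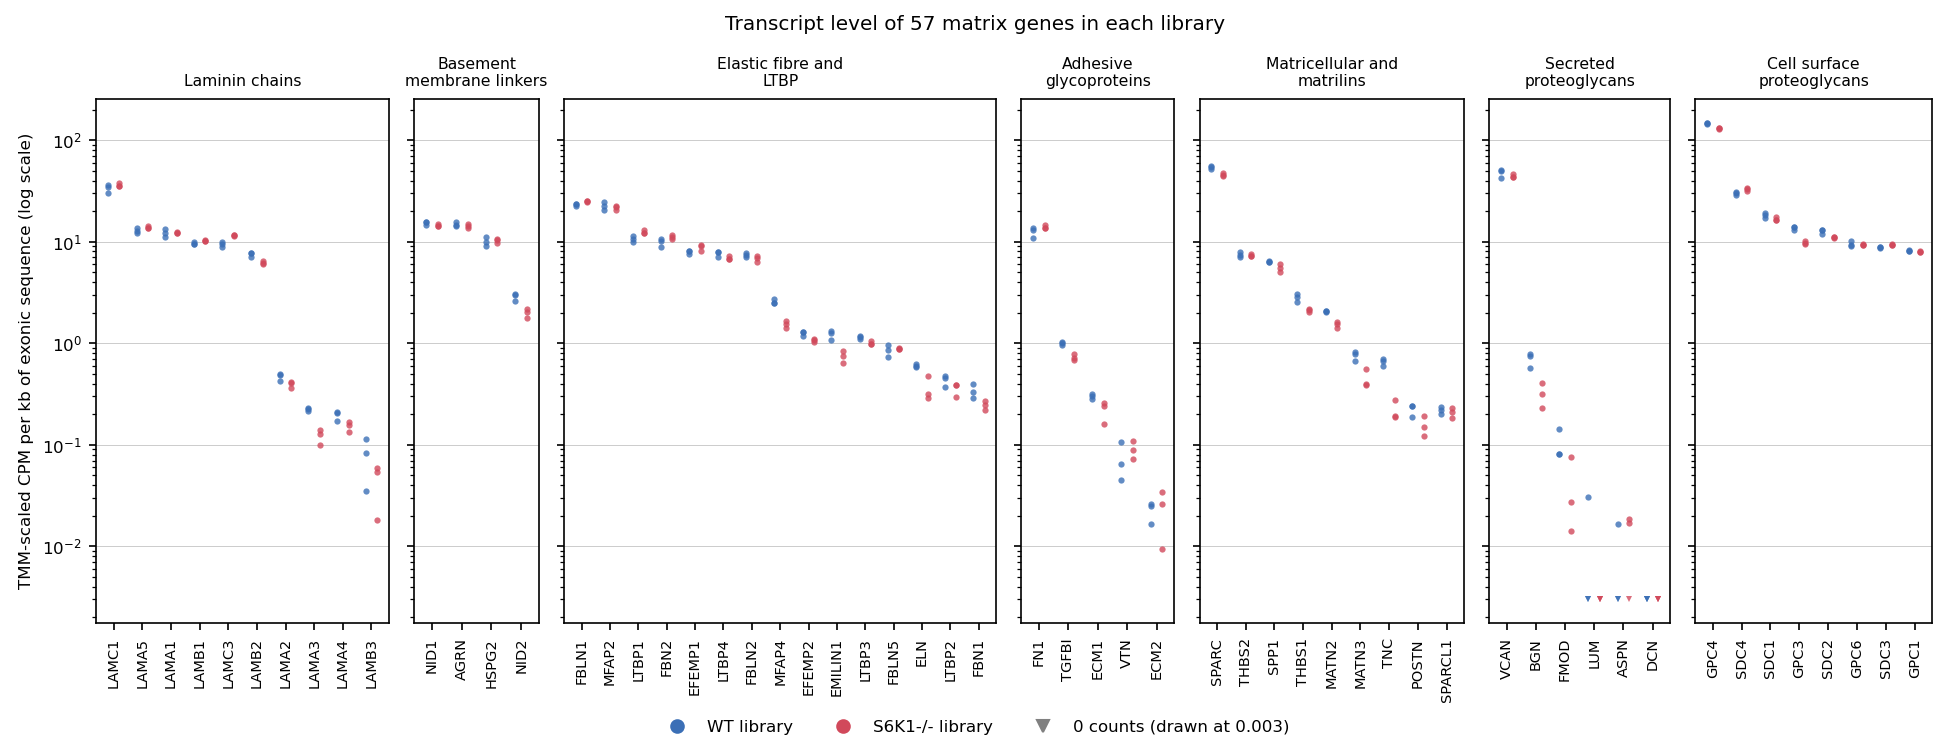
Level of each of the 57 genes in each library, in TMM-scaled CPM per kilobase of exonic sequence on a log axis, in 7 groups by role and ordered within a group by the WT mean. Blue points are the 3 WT libraries, red points the 3 S6K1-/- libraries and triangles libraries with 0 counts. GPC4 is highest with a WT mean of 147, and for most genes near or above 10 the colours lie close together.

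Of the 50 genes tested, 7 were lower and 1 was higher in S6K1-/- cells. Over all genes tested, 2.54% were lower and 1.42% higher by the same rule, against 14.0% and 2.00% of these 50. TNC, MFAP4, NID2, GPC3, MATN2, THBS1 and SPARC were the lower genes, and LAMC3 was the higher one. A further 11 genes were lower and 1 was higher at an adjusted p from 0.001 to 0.05. At an adjusted p under 0.05 as a whole this makes 18 lower and 2 higher genes, where all genes gave 8.31% and 5.47%. The median log2 fold change of the 50 genes was -0.15, with 36 of them below 0, while the median of all genes was -0.0024. For 30 of the 50 genes (60.0%), no WT library reached into the range of the S6K1-/- libraries, which held for 30.7% of all genes. In 23 of the 50 the S6K1-/- libraries were the lower ones, as in 16.7% of all genes. In bulk RNA, fewer cells that express a gene and less transcript per cell cannot be told apart. Only TNC and GPC3 were past the threshold in each of the 6 fits that left out 1 library. The other called genes kept their direction throughout, but SPARC, MFAP4 and MATN2 were past 0.001 in none of these fits, THBS1 and NID2 only in that without WT replicate 2 and LAMC3 only in that without WT replicate 1. Their highest adjusted p in these fits was 0.0105 for SPARC, 0.00466 for MFAP4, 0.00702 for MATN2, 0.00877 for THBS1, 0.00743 for NID2 and 0.00417 for LAMC3.

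**Figure D2:**
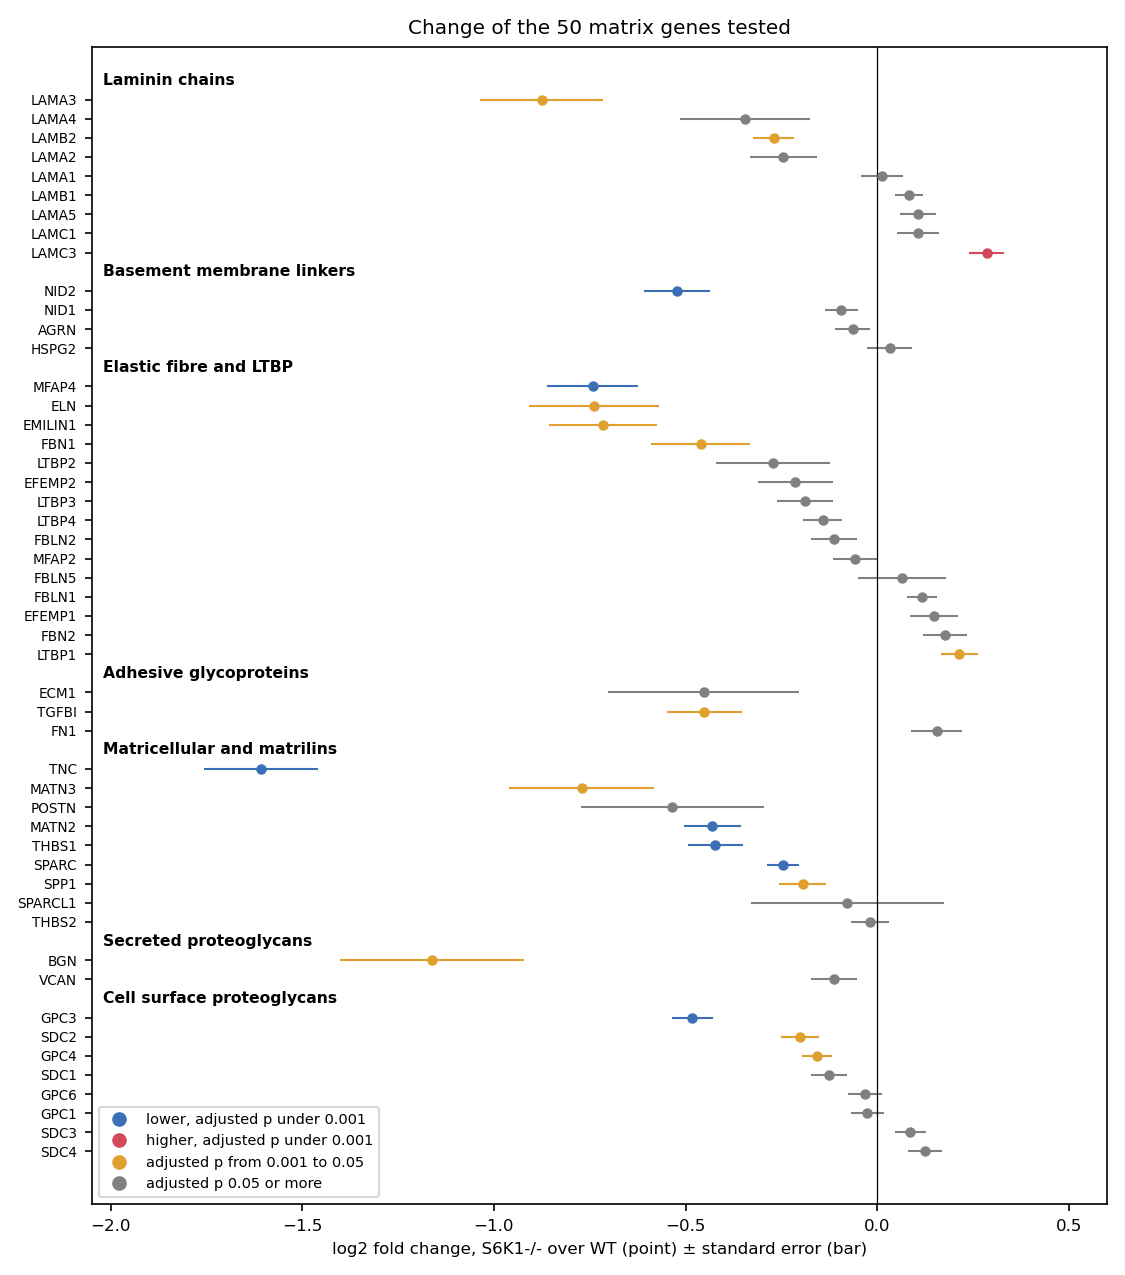
Log2 fold change of S6K1-/- over WT cells (points) with its SE (bars) for the 50 genes tested, by role. Blue marks the 7 lower genes and red the 1 higher gene at an adjusted p under 0.001, orange an adjusted p from 0.001 to 0.05 and grey the rest. All 9 genes of the matricellular group lie left of 0, from TNC at -1.61 to THBS2 at -0.018.

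Among the 10 laminin chain genes, 9 were tested and 1 was higher (11.1%, beside 1.42% of all genes). With the filter on low counts and all 6 libraries none was lower by edgeR at 0.001. At an unadjusted p under 0.05, 3 of the 9 had a value below 0 and 3 above 0, where all genes gave 14.5% and 11.8%. LAMC3, which encodes the gamma 3 chain, lies on chromosome 9 from 131009174 to 131094473 on the plus strand. It had 2167, 2072 and 1831 counts in WT and 2367, 2463 and 2259 counts in S6K1-/- cells. Every S6K1-/- library was above every WT library after scaling (84.04 ± 5.10 against 102 ± 1.52 CPM, SD, n = 3 each). The log2 fold change was 0.29 (SE 0.0462, adjusted p = 5.67e-04).

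The 4 laminin chain genes with the highest WT level per kilobase did not pass the threshold. LAMC3, which did, lay close to the last of them, LAMB1 (9.40 ± 0.570 against 9.63 ± 0.174 CPM per kilobase in WT, SD, n = 3 each). LAMC1, the gamma 1 chain shared by most laminins, had 7366, 6298 and 6724 counts in WT and 7450, 7157 and 6460 in S6K1-/- cells, with overlapping groups and a log2 fold change of 0.11 (SE 0.0545, adjusted p = 0.235). LAMA5, an alpha chain of the laminins on which hESCs grow, had 4769, 4259 and 4193 counts in WT and 4543, 4854 and 4254 in S6K1-/- cells. Its groups overlapped too, at a log2 fold change of 0.11 (SE 0.0466, adjusted p = 0.160). LAMA1, the alpha chain of early embryonic basement membranes, differed by 0.013 (SE 0.0549) and LAMB1 by 0.084 (SE 0.0374), neither past the threshold.

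The other chains had values below 0. LAMA3, an alpha chain of epithelial laminins, had 81, 80 and 73 counts in WT and 34, 44 and 44 in S6K1-/- cells, so that the groups were far apart (3.24 ± 0.0929 against 1.77 ± 0.293 CPM). Its log2 fold change was -0.88 (SE 0.160), with an adjusted p of 0.00159 that missed the threshold, and 1.98e-05 without a filter on low counts. In that fit LAMA3 kept its log2 fold change at a larger SE of 0.175, so the smaller p reflects no clearer difference. LAMB2, the beta 2 chain found at synapses and in the kidney filter, had 1296, 1185 and 1236 counts in WT and 992, 1068 and 900 in S6K1-/- cells. All S6K1-/- libraries were below all WT libraries, at a log2 fold change of -0.27 (SE 0.0532, adjusted p = 0.00284). LAMB2 passed the threshold without WT replicate 2 (adjusted p = 5.78e-04) and without a filter (adjusted p = 3.38e-05). LAMA2 and LAMA4 had log2 fold changes of -0.24 and -0.34 with an adjusted p of 0.0781 and 0.211. LAMB3, from 4 to 13 counts in WT and from 2 to 6 in S6K1-/- cells, was not tested.

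Nidogens and heparan sulfate proteoglycans tie the laminin network to the other parts of the basement membrane. NID2, the nidogen 2 gene on chromosome 14 from 52004809 to 52069059 on the minus strand, had 460, 394 and 430 counts in WT and 296, 322 and 241 in S6K1-/- cells. The groups did not overlap, at 17.8 ± 1.56 and 12.4 ± 1.21 CPM (SD, n = 3 each), and NID2 fell by 0.52 on the log2 scale (SE 0.0860, adjusted p = 6.60e-04). Of its exonic length, 30.7% is shared with RTRAF on the opposite strand, at 197 ± 6.33 CPM in WT and 195 ± 5.44 CPM in S6K1-/- cells. The strand setting of the counting is not given in the sources used here, so that reads of the shared part cannot be assigned to either gene. The paralog NID1, at 89.3 ± 3.90 and 83.7 ± 1.98 CPM with 2225, 2085 and 2131 counts in WT and 2017, 1992 and 1786 in S6K1-/- cells, had a log2 fold change of -0.093 (adjusted p = 0.191). AGRN, which encodes agrin, had 4115, 3876 and 3588 counts in WT and 3482, 3836 and 3303 in S6K1-/- cells, with overlapping groups and a log2 fold change of -0.064 (adjusted p = 0.408). HSPG2, which encodes perlecan, differed by 0.033 (adjusted p = 0.784).

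All 15 genes of elastic fibres, fibulins and latent TGFβ binding proteins were tested, with 1 lower (6.67%, beside 2.54% of all genes). With the filter on low counts none was higher by edgeR at 0.001. At an unadjusted p under 0.05, 7 of the 15 had a value below 0 and 4 above 0, beside 14.5% and 11.8% of all genes. MFAP4, which encodes a microfibril-associated glycoprotein, lies on chromosome 17 from 19383442 to 19387190 on the minus strand. Its counts were 127, 130 and 134 in WT and 82, 71 and 71 in S6K1-/- cells, well apart (5.42 ± 0.300 against 3.24 ± 0.264 CPM, SD, n = 3 each). MFAP4 fell by 0.74 on the log2 scale (SE 0.119, adjusted p = 5.25e-04), and with DESeq2's Wald test its adjusted p was 0.00264.

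ELN, EMILIN1 and FBN1 were low in these cells, with lower levels in every S6K1-/- library that did not pass 0.001. FBLN5, which encodes a fibulin needed for elastic fibre assembly and was equally low, had no such difference, at 5.30 ± 0.675 CPM in WT and 5.55 ± 0.101 CPM in S6K1-/- cells (log2 fold change 0.066, SE 0.115, adjusted p = 0.777). ELN, the elastin gene, had 101, 95 and 91 counts in WT and 45, 75 and 45 in S6K1-/- cells, where replicate 2 stood above the others (log2 fold change -0.74, SE 0.170, adjusted p = 0.00836). Without that library the adjusted p was 8.21e-04 and the log2 fold change -0.996, and without a filter on low counts the adjusted p was 7.01e-05. EMILIN1, an elastic fibre glycoprotein gene, had 125, 121 and 97 counts in WT and 58, 79 and 63 in S6K1-/- cells, with no overlap (log2 fold change -0.72, SE 0.141, adjusted p = 0.00276, or 2.57e-05 without a filter). FBN1, the fibrillin 1 gene, had 149, 133 and 169 counts in WT and 118, 109 and 88 in S6K1-/- cells (log2 fold change -0.46, SE 0.129, adjusted p = 0.0270).

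The abundant genes of this group had values closer to 0 or above it. FBN2, the fibrillin prominent in embryonic tissue, was at 175 ± 16.5 CPM in WT and 198 ± 8.16 CPM in S6K1-/- cells (log2 fold change 0.18, adjusted p = 0.0557). FBLN1, the fibulin 1 gene and the highest of the group per kilobase, had 4148, 4227 and 3757 counts in WT and 4308, 4404 and 3901 in S6K1-/- cells (log2 fold change 0.12, adjusted p = 0.0648). MFAP2, the next highest, had 1363, 1627 and 1402 counts in WT and 1389, 1446 and 1215 in S6K1-/- cells, with overlapping groups (log2 fold change -0.057, adjusted p = 0.585). LTBP1, which encodes a protein that holds latent TGFβ in the matrix, had 2027, 1812 and 1831 counts in WT and 2224, 2143 and 1944 in S6K1-/- cells. After scaling its groups did not overlap, at a log2 fold change of 0.21 (SE 0.0484, adjusted p = 0.00748, or 2.06e-04 without a filter). LTBP2, LTBP3 and LTBP4 had values of -0.27, -0.19 and -0.14, none with an adjusted p under 0.05. FBLN2, EFEMP1 and EFEMP2 lay between -0.21 and 0.15 and also had an adjusted p above 0.05.

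Of the 5 adhesive glycoprotein genes, 3 were tested and none was past the threshold with edgeR, while 1 below 0 and 1 above 0 had an unadjusted p under 0.05, beside 14.5% and 11.8% of all genes. FN1, which encodes fibronectin, was the main transcript, with 5712, 4574 and 5191 counts in WT and 5854, 5574 and 5116 in S6K1-/- cells. WT replicate 2 was the lowest library and the groups overlapped (log2 fold change 0.16, SE 0.0659, adjusted p = 0.145). Without that library the value was 0.062, and without WT replicate 1 it was 0.23 (adjusted p = 0.0349). TGFBI, which encodes a TGFβ-induced adhesion protein, had 195, 189 and 171 counts in WT and 143, 125 and 121 in S6K1-/- cells. Here no libraries of the groups overlapped, with a log2 fold change of -0.45 (SE 0.0982, adjusted p = 0.00579). ECM1 had from 22 to 26 counts in WT and from 13 to 19 in S6K1-/- cells (adjusted p = 0.273).

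The matricellular group held 4 of the 7 lower genes, among 9 tested (44.4%, beside 2.54% of all genes). At an unadjusted p under 0.05, 7 of the 9 had a value below 0 and none above, beside 14.5% and 11.8% of all genes. TNC encodes tenascin C, a large glycoprotein of embryonic and injured tissue that weakens the adhesion of cells to fibronectin. It lies on chromosome 9 from 115019575 to 115118207 on the minus strand. TNC had 164, 142 and 150 counts in WT and 42, 44 and 57 in S6K1-/- cells, so that even the lowest WT library, at 142, stood far above the highest S6K1-/- library, at 57. The level was 6.32 ± 0.494 CPM in WT and 2.08 ± 0.466 CPM in S6K1-/- cells (SD, n = 3 each), a 3.05-fold difference. TNC fell by 1.61 on the log2 scale (SE 0.148, adjusted p = 2.24e-06), from -1.79 to -1.51 over the fits that left out 1 library.

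THBS1 encodes thrombospondin 1, which can activate latent TGFβ and restrains blood vessel growth, and lies on chromosome 15 from 39581079 to 39599466 on the plus strand. It had 641, 574 and 650 counts in WT and 463, 469 and 404 in S6K1-/- cells, with no overlap (25.9 ± 2.35 against 19.3 ± 0.635 CPM). THBS1 fell by 0.42 on the log2 scale (SE 0.0717, adjusted p = 8.36e-04), and with DESeq2's size factors the adjusted p was 0.00104. The related THBS2 did not pass the threshold. It had 1383, 1244 and 1230 counts in WT and 1226, 1247 and 1178 in S6K1-/- cells, and its groups overlapped (log2 fold change -0.018, SE 0.0499, adjusted p = 0.866). For THBS2, 31.2% of the exonic length is shared with an antisense gene, THBS2-AS1.

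SPARC encodes a collagen-binding matricellular protein and lies on chromosome 5 from 151661096 to 151686975 on the minus strand. It was the most abundant member of its group, with 5869, 6146 and 6046 counts in WT and 4808, 5053 and 4742 in S6K1-/- cells. All S6K1-/- libraries were lower, though by a small step (250.5 ± 9.61 against 211 ± 6.54 CPM, SD, n = 3 each). SPARC fell by 0.25 on the log2 scale (SE 0.0422, adjusted p = 9.31e-04), and with DESeq2's size factors the adjusted p was 0.00113. MATN2 encodes matrilin 2, an adaptor of matrix filaments, and lies on chromosome 8 from 97868840 to 98036724 on the plus strand. It had 351, 347 and 335 counts in WT and 263, 237 and 235 in S6K1-/- cells (14.3 ± 0.176 against 10.6 ± 0.666 CPM, SD, n = 3 each). With no overlap of the groups, MATN2 fell by 0.43 on the log2 scale (SE 0.0744, adjusted p = 9.91e-04). It sat at the edge of the threshold, and its adjusted p was 0.00116 with DESeq2's size factors, 0.00495 with DESeq2's Wald test and 0.00109 when at least 10 counts were required in every library.

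The remaining matricellular genes had values below 0 but did not pass 0.001. MATN3, a matrilin of cartilage, had 60, 64 and 49 counts in WT and 41, 29 and 27 in S6K1-/- cells (log2 fold change -0.77, SE 0.189, adjusted p = 0.0125). SPP1, which encodes the integrin ligand osteopontin, had 1109, 1139 and 1061 counts in WT and 947, 865 and 955 in S6K1-/- cells (log2 fold change -0.19, SE 0.0616, adjusted p = 0.0484). In both genes the groups did not overlap. POSTN and SPARCL1 were low, with from 24 to 32 and from 17 to 19 counts in WT cells, and had an adjusted p of 0.168 and 0.898.

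**Figure D3:**
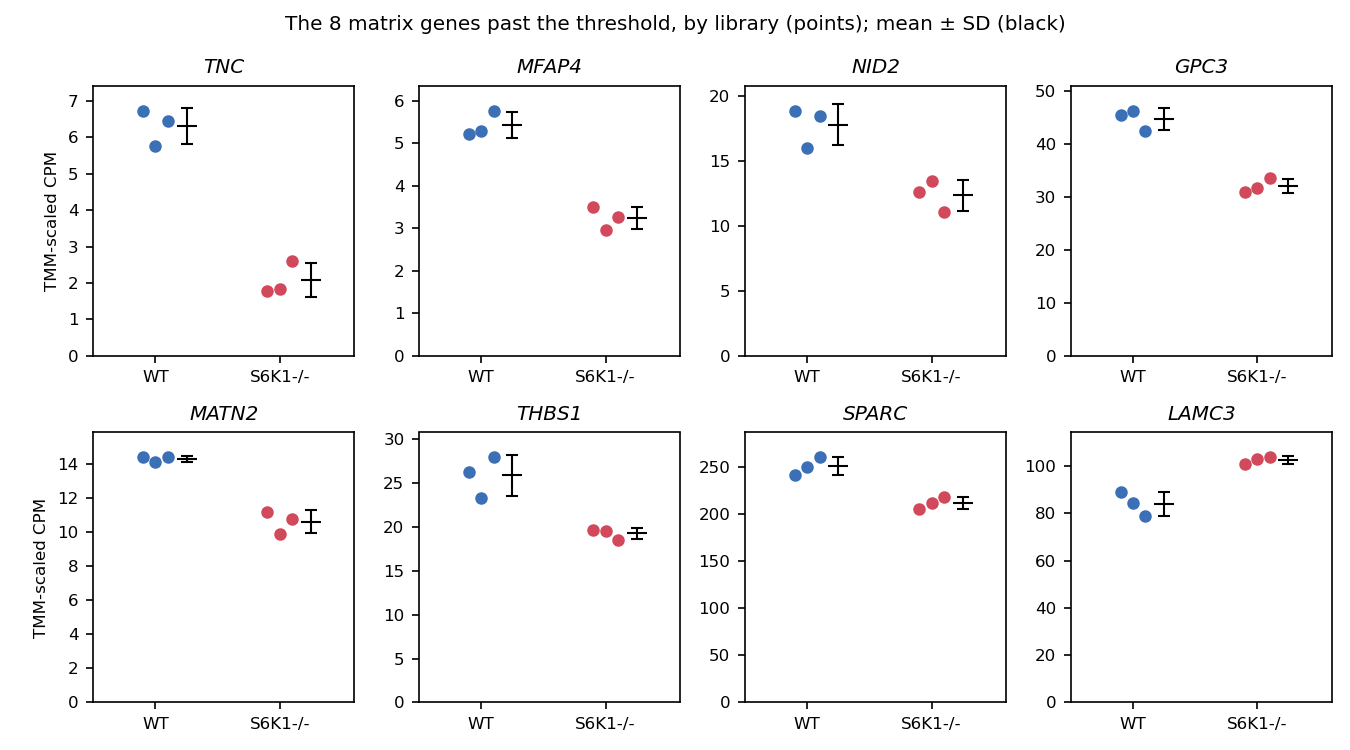
TMM-scaled CPM of the 8 genes past the threshold in each library (points), with mean ± SD of the 3 libraries in black and axes from 0. The groups do not overlap for any of the 8, and the gap relative to the level is largest for TNC, at 6.32 against 2.08 CPM.

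Sequences upstream of the start are shown for the lower genes whose promoter was in the RefSeq set (GRCh38.p14), together with THBS2 as the paralog that did not pass the threshold. They are written from 5′ to 3′ on the strand of the gene. Those of TNC, THBS1 and NID2 end before the start of the gene in both RefSeq and GENCODE. For SPARC and THBS2 the motif lies between those starts, and only 30 bases are shown. Capitals mark GGAATG or its reverse complement, the core recognised by TEAD factors.
TNC (chr9:115118208-115118407): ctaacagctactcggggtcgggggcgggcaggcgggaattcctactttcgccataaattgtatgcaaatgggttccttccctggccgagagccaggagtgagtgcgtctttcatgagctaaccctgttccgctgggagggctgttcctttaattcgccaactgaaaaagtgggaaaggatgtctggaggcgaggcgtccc
THBS1 (chr15:39580829-39581078): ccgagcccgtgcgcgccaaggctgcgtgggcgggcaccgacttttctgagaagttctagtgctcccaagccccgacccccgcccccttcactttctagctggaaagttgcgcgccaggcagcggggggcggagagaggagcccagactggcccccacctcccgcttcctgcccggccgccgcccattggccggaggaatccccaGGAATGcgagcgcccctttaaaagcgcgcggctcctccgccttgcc
NID2 (chr14:52069060-52069309): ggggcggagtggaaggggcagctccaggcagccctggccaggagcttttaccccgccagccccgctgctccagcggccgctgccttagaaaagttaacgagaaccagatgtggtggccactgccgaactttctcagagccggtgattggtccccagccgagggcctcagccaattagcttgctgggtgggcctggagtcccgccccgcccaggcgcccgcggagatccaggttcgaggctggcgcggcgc
SPARC (chr5:151686916-151686945): ctaaacccctccaCATTCCcgcggtccttc
THBS2 (chr6:169253926-169253955): tgatgtCATTCCttcgaaGGAATGaattaa

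The letters GGAATG were searched on both strands in the 250 bases before each RefSeq start. They occurred in 4175 of 35116 promoters (11.9%) and in 9 of 55 promoters of 45 members (16.4%). Among the lower genes they were present at THBS1 and SPARC and not at TNC or NID2, and THBS2 held them at both positions in capitals. TGANTCA, the AP-1 motif, was in 6.57% of all promoters and in 5 of the 55, none of them at a gene past the threshold, and the CArG box, bound by SRF, was in 1.16% of all and in 1 of the 55. No promoter of MFAP4, GPC3, MATN2 or LAMC3 was matched.

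Secreted proteoglycans were represented almost entirely by VCAN. It had 18219, 15213 and 16986 counts in WT and 15839, 15192 and 13741 in S6K1-/- cells, with overlapping groups (699 ± 70.4 against 647 ± 24.1 CPM). Its log2 fold change was -0.11 (SE 0.0606, adjusted p = 0.259), but -0.19 without WT replicate 2, the lowest of the WT libraries (adjusted p = 0.00777), and -0.053 without WT replicate 1. BGN encodes biglycan, a small leucine-rich proteoglycan that binds collagen, and was the only other gene of this group tested. It had 44, 46 and 32 counts in WT and 13, 18 and 21 in S6K1-/- cells, which did not overlap. Its log2 fold change of -1.16 was next to that of TNC in size, but with an SE of 0.240 at these counts the adjusted p was 0.00398, or 4.32e-05 without a filter. FMOD, the fibromodulin gene, had from 6 to 10 counts in WT and from 1 to 5 in S6K1-/- cells and was not tested.

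All 8 cell surface proteoglycan genes were tested, with 1 lower (12.5%, beside 2.54% of all genes). At an unadjusted p under 0.05, 4 of the 8 had a value below 0 and 1 above 0, beside 14.5% and 11.8% of all genes. GPC3 encodes glypican 3, a regulator of fetal growth whose loss causes an overgrowth syndrome, and lies on the X chromosome from 133535745 to 133987100 on the minus strand. It had 1106, 1137 and 983 counts in WT and 726, 758 and 728 in S6K1-/- cells, and the groups were clearly separate (44.7 ± 2.07 against 32.01 ± 1.30 CPM, SD, n = 3 each). GPC3 fell by 0.48 on the log2 scale (SE 0.0546, adjusted p = 1.93e-05), from -0.51 to -0.46 with 1 library left out. GPC4, the most abundant of the 57 genes, had 17585, 17821 and 17072 counts in WT and 15481, 15675 and 14000 in S6K1-/- cells. Its libraries did not overlap either (727 ± 6.67 against 652 ± 8.33 CPM), and its log2 fold change of -0.16 (SE 0.0384) had an adjusted p of 0.0123, or 4.99e-04 with DESeq2's Wald test. GPC1 and GPC6 differed by -0.026 and -0.031.

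Among the syndecans, transmembrane proteoglycans that act as co-receptors, SDC2 had 1190, 1319 and 1245 counts in WT and 1060, 1071 and 999 in S6K1-/- cells, without overlap (log2 fold change -0.20, SE 0.0495, adjusted p = 0.0126). SDC4, the most abundant syndecan per kilobase, had 1824, 1946 and 1872 counts in WT and 1913, 2103 and 1887 in S6K1-/- cells (log2 fold change 0.13, SE 0.0449, adjusted p = 0.0811). SDC3 and SDC1 had values of 0.087 and -0.13 with an adjusted p of 0.195 and 0.0965.

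These differences were also viewed as the make-up of 5 families, in shares of the CPM per kilobase summed over all genes of the family, with LAMB4, GPC2 and GPC5 from the further matrix genes included. The shares are given as a description with no test. LAMA1 and LAMA5 shared the alpha chain transcripts almost equally, at 47.1% ± 0.901 and 49.5% ± 0.918 in WT and 46.0% ± 0.937 and 51.5% ± 0.792 in S6K1-/- cells (SD, n = 3 each). The share of LAMA3 went from 0.866% ± 0.0618 to 0.456% ± 0.0760. Among beta chains LAMB2 took 43.8%, 42.4% and 44.6% in WT and 37.8%, 38.8% and 36.7% in S6K1-/- cells, which do not overlap, and LAMB1 made up nearly all of the rest. The size of these shares depends on the annotated exonic lengths, 18592 bases for LAMB1 and 6865 for LAMB2. Before division by length, LAMB1 was at 179 CPM and LAMB2 at 51.55 CPM in WT cells. GPC4 took the main share of glypican transcripts in both groups (78.2% ± 0.398 and 77.04% ± 0.544). GPC3 went from 7.26% ± 0.365 to 5.71% ± 0.270 and GPC2 from 5.10% ± 0.263 to 7.07% ± 0.310, so that their order differed between the groups. The level summed over all 6 glypicans was 188 ± 0.773 CPM per kilobase in WT and 171 ± 1.23 in S6K1-/- cells, while that of the syndecans was 69.8 ± 2.501 and 69.8 ± 1.61. The share of LTBP1 went from 53.8% ± 1.89 to 60.0% ± 1.53 of the latent TGFβ binding proteins, and LTBP4 went from 38.3% ± 1.85 to 33.4% ± 1.14.

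After seeing the data, the genes tested were divided by their mean level over all 6 libraries, with no test between the bands. Of the 16 members below 10 CPM, 15 had a log2 fold change below 0, with a median of -0.50, and 2 were lower past the threshold. All 9037 genes in this band had a median of -0.049, with 5149 below 0 and 2.74% lower. In the band from 10 to 100 CPM, 17 of 22 members were below 0 with a median of -0.12, and 4 were lower and 1 higher, where all 8413 genes had a median of 0.0074, with 47.4% below 0 and 2.63% lower. Of the 12 members at 100 CPM or more, which include LAMA1, LAMA5, LAMB1, LAMC1, FN1, HSPG2 and AGRN, 4 were below 0, the median was 0.058 and SPARC alone was lower. All 2071 genes of that band had a median of 0.026, with 35.8% below 0 and 1.30% lower.

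**Figure D4:**
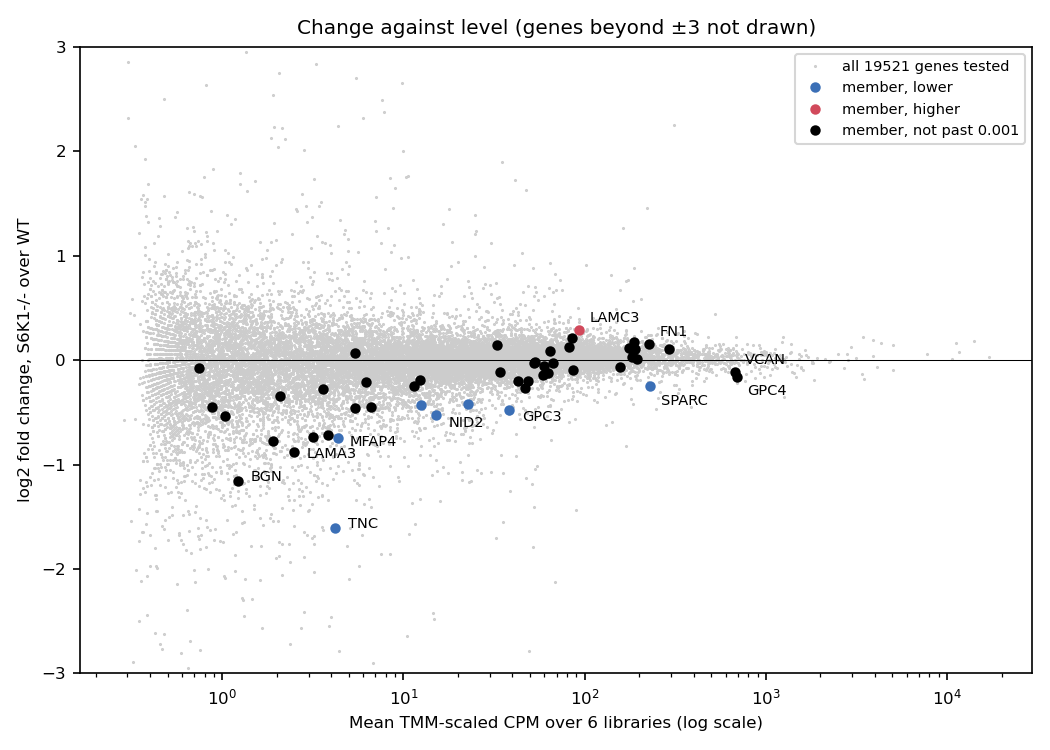
Log2 fold change of S6K1-/- over WT cells against the mean TMM-scaled CPM over 6 libraries (log axis) for all 19521 genes tested in grey and the 50 members in colour, blue for lower, red for higher and black for not past 0.001. Members below 10 CPM lie under 0 in 15 of 16 cases, while those at 100 CPM or more lie from -0.25 to 0.18. The axis ends at ±3, which leaves out 57 of the 19521 genes and no member.

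Other genes of the same biology were taken from lists, also chosen with earlier results of these data known. Of 78 further matrix glycoprotein and proteoglycan genes, 53 were tested, 9 were lower (17.0%) and 2 higher (3.77%), beside 2.54% and 1.42% of all genes, with a median of -0.14. The lower genes with the smallest p were CCN2 (-2.13, SE 0.0613) and CCN1 (-1.13, SE 0.0496), which encode matricellular proteins known as targets of YAP, SRPX (-1.04, SE 0.110), HAPLN3, a link protein of hyaluronan (-0.54, SE 0.0585), and EMILIN2, a relative of EMILIN1 (-0.63, SE 0.0729), all log2 fold changes. The higher genes were FBN3, a fibrillin of fetal tissue, at 70.6 ± 4.24 CPM in WT and 87.3 ± 2.20 CPM in S6K1-/- cells (log2 fold change 0.31, SE 0.0474), and GPC2, a glypican of neural tissue, at 36.7 ± 1.77 and 46.4 ± 2.14 CPM (log2 fold change 0.34, SE 0.0543). With 1 library left out, no gene of this list was higher past the threshold in 5 of the 6 fits, and 2 were without WT replicate 1.

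Enzymes that build or edit heparan sulfate, the chain carried by syndecans, glypicans, perlecan and agrin, gave 2 lower (7.69%) and no higher gene among 26 tested, beside the same 2.54% and 1.42%. HS6ST2, a 6-O-sulfotransferase, went from 29.1 ± 0.452 to 16.8 ± 1.03 CPM (SD, n = 3 each) and fell by 0.79 on the log2 scale (SE 0.0630, adjusted p = 4.28e-07). SULF1, which removes 6-O-sulfate groups outside the cell, went from 27.1 ± 2.32 to 18.4 ± 0.177 CPM and fell by 0.56 (SE 0.0696, adjusted p = 5.20e-05). The median of the list was -0.030, and no gene was higher at 0.001 with edgeR or with DESeq2's Wald test, while 1 had a value above 0 at an unadjusted p under 0.05 in edgeR, beside 11.8% of all genes.

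Receptors for these proteins gave 2 lower (10.5%) and 1 higher gene (5.26%) among 19 tested, again beside 2.54% and 1.42% of all genes, with a median of -0.11. CD44, the hyaluronan receptor, went from 9.65 ± 0.315 to 3.64 ± 0.274 CPM and fell by 1.41 on the log2 scale (SE 0.0998, adjusted p = 1.06e-07). DDR2, a receptor kinase for fibrillar collagen, went from 3.76 ± 0.297 to 1.24 ± 0.122 CPM and fell by 1.59 (SE 0.161, adjusted p = 6.10e-06). LRP4, which encodes a receptor of agrin, rose by 0.37 (SE 0.0518, adjusted p = 1.60e-04), but was not past 0.001 without WT replicate 3 or without S6K1-/- replicate 1.

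Markers of other cell types were read beside these results. Of 14 mesenchymal genes, 8 were tested and 3 were lower (37.5%, beside 2.54% of all genes), namely TAGLN (-1.25, SE 0.0545), PDGFRB (-1.34, SE 0.134) and TWIST2 (-1.004, SE 0.113). The summed level of the 14 genes was from 561 to 585 CPM in WT and from 514 to 538 CPM in S6K1-/- libraries, or from 86.5 to 92.9 and from 43.9 to 47.5 CPM without THY1, which hESCs express too. TAGLN alone made up 54.6 ± 1.91 CPM of that sum in WT and 22.98 ± 1.05 CPM in S6K1-/- cells. Of the 8 genes tested 7 had a value below 0, and 6 of them an unadjusted p under 0.05, beside 14.5% of all genes. ACTA2 was among these (log2 fold change -1.49, adjusted p = 0.00526). PDGFRA, with from 30 to 44 counts, was the 1 gene with a value above 0 (log2 fold change 0.17, adjusted p = 0.633). TWIST1, PRRX1 and MEOX1 were at or under 3 counts in every library. The part of these genes in the lower matrix genes was not tested. Of 12 endodermal genes 5 were tested and none was past the threshold with edgeR, although all 5 had a value below 0 with an unadjusted p under 0.05, where all genes gave 14.5%, with summed levels from 9.30 to 11.8 CPM in WT and from 5.01 to 6.35 CPM in S6K1-/- libraries. The defining genes TTR, SOX17 and GATA6 were at most at 2 counts. FOXA2, the endodermal gene with the most counts, had 136, 189 and 116 counts in WT and 78, 81 and 71 in S6K1-/- cells, without overlap (log2 fold change -0.88, SE 0.153, adjusted p = 0.00108). CXCR4, GATA4, EOMES and AFP had from 13 to 35 counts in WT and from 3 to 20 in S6K1-/- cells, with log2 fold changes from -1.26 to -0.64. Of 12 genes of amnion and trophoblast 4 were tested and none passed with edgeR (1 below 0 at an unadjusted p under 0.05, against 14.5% of all genes), with sums from 24.1 to 26.0 CPM in WT and from 20.6 to 22.9 CPM in S6K1-/- libraries. HAND1 was at 0 throughout. KRT7, a keratin of simple epithelia, had 122, 143 and 99 counts in WT and 66, 75 and 56 in S6K1-/- cells, without overlap (log2 fold change -0.82, SE 0.143, adjusted p = 0.00103), and GABRP had from 326 to 391 counts in all libraries (log2 fold change -0.026). The part of the endodermal and epithelial genes in the lower matrix genes was not tested either. Of 12 neuroectodermal genes 7 were tested, with 1 higher and 1 lower (14.3% each, beside 1.42% and 2.54% of all genes). PAX6 rose by 0.76 (SE 0.113) and DCX fell by 0.54 (SE 0.0857). SOX1 had 6, 7 and 6 counts in WT and 16, 17 and 12 in S6K1-/- cells (log2 fold change 1.29, SE 0.334, adjusted p = 0.0174), and SIX3 had a value of 0.15 (adjusted p = 0.179). The sum was from 491 to 513 CPM in WT and from 479 to 498 CPM in S6K1-/- libraries, most of it from NES.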

How the data were processed

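Poly(A) libraries (TruSeq Stranded mRNA) of 3 WT and 3 S6K1-/- H7 samples were sequenced as paired reads. The authors trimmed them with Trim Galore 0.6.5, aligned them to GRCh38 with Bowtie2 2.4.5, which does not align across splice junctions, and counted with featureCounts. The deposited values are whole counts per gene symbol without normalization. The annotation release and strand setting are not given in the sources used here. A second table holds the authors' own comparison (means, fold changes, p-values) and was not used.

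Counts were filtered with filterByExpr, scaled by TMM and compared with edgeR's quasi-likelihood test (edgeR 4.0.16 in R 4.3.3), and the model held genotype alone. Of 61155 genes, 19521 passed the filter and shared 1 Benjamini-Hochberg adjustment, with the study's threshold of 0.001. Standard errors come from the log2 fold change and the F statistic. On simulated counts for this comparison over 19471 genes, 175 of 200 genes changed by 1 on the log2 scale were called, and 0 unchanged genes. Every simulated gene had the same dispersion (0.00216), so this does not measure the error rate in these data or for smaller changes. CPM used the scaled library sizes. Exonic lengths, with all annotated exons of a gene merged, and positions are from GENCODE 44, matched by symbol for all 57 members. Promoters are from RefSeq.

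Members and lists were chosen with earlier results of these data known. Named with all libraries are members with an adjusted p under 0.05 and the top pair per role group by WT level per kilobase, and from other lists up to 5 genes past the threshold per direction. Other marker genes of cell types named in the text, FOXA2, KRT7 and SOX1 with their counts among them, and the genes overlapping a member fall outside this rule and were chosen after their values were seen. Results were recomputed with the size factors or the Wald test of DESeq2 1.42.0, without a filter, with a filter of 10 counts in every library, with a replicate block, without each library in turn, and at a threshold of 0.05. Repeat libraries differed by more than counting noise (chi-square over its degrees of freedom between 2.23 and 4.51). Shares of laminin gamma chains are not reported here.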

Additional observations from a re-analysis of the deposited data

How the results depend on the processing

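The direction of the 8 called genes held under all alternatives, and RPS6KB1 was past the threshold in each, from -0.77 to -0.72 with 1 library left out. Adjusted p-values without a filter on low counts are not comparable with those of the main fit. That of RPS6KB1 went from 2.52e-07 to 1.17e-26 while its SE rose from 0.0570 to 0.0672. At an adjusted p under 0.05, 8.31% of all genes were lower and 5.47% higher, but such shares are not given for the other settings. Counts of members and lists under those settings therefore cannot be read as particular to these genes. The 7 lower members became 4 with DESeq2's size factors, 12 without a filter on low counts and 18 at an adjusted p under 0.05, and from 2 to 5 with 1 library left out. The 1 higher member became 2 without a filter and 2 at 0.05, and from 0 to 1 with 1 library left out. With the replicate number as a block, 3 members were lower and 0 higher, and 1 other matrix gene was higher instead of 2. Replicate numbers did not pair the libraries (correlations of deviations for equal numbers 0.032, 0.0055 and 0.039), and the labels name no shared batch. WT replicates 1 and 2 and S6K1-/- replicate 2 did not correlate best with their own number. Lower genes of the further matrix list went from 9 to 18 without a filter and to 20 at 0.05, those of heparan sulfate enzymes from 2 to 4 at 0.05, and those of receptors from 2 to 4 without a filter and to 7 at 0.05. With 1 library left out, higher genes were from 0 to 2 in the further matrix list and from 0 to 1 among receptors. The cause of these shifts was not tested, except that fits without a library have fewer samples. Genes not past the threshold whose value crossed 0 with 1 library left out were LAMA1 (from -0.054 to 0.088), HSPG2 (from -0.032 to 0.12), MFAP2 (from -0.11 to 0.0090), FBLN5 (from -0.017 to 0.17), GPC6 (from -0.057 to 0.015), THBS2 (from -0.056 to 0.037) and SPARCL1 (from -0.15 to 0.0014). Other values not past the threshold that 1 library moved by over 1.5 times were those of LAMC1 (from 0.041 to 0.17), LAMA5 (from 0.068 to 0.17), AGRN (from -0.095 to -0.016), FBN2 (from 0.10 to 0.24), FBLN2 (from -0.14 to -0.061), LTBP2 (from -0.37 to -0.15), ECM1 (from -0.57 to -0.27), SPP1 (from -0.25 to -0.12), GPC1 (from -0.027 to -0.010), VCAN and FN1. For genes below 10 CPM, the median standard error was 0.155 among members, so that changes of the size seen in abundant genes were not detectable there.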
